A study of Homo sapiens with 18 samples.

Results

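The cornified envelope genes of chromosome band 1q21 were examined here as 10 members, namely IVL, SPRR1A, SPRR1B, SPRR2A, SPRR2D, SPRR3, FLG, RPTN, S100A7 and S100A8. A region of accessible chromatin was taken as a member region when it overlapped the body of one of these genes extended by 10 kb on both sides, with gene positions from GENCODE on GRCh37 (hg19), the build of the deposited regions. This rule found 13 of the 115087 regions of the series, and it used positions only, not signal. The regions lay near 7 of the 10 genes. No region of the series lay within 10 kb of FLG, SPRR3 or S100A8.

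Open chromatin had been profiled by ATAC-seq (the Tn5 transposase cuts and tags accessible DNA) in the head and neck squamous cell carcinoma (HNSCC) cell lines SCC1, SCC6 and SCC25. Cells of each line received 100 nM cetuximab, an antibody that blocks the receptor tyrosine kinase EGFR, or PBS as the untreated control, and were collected after 5 days. The 6 groups held 3 libraries each, apart from SCC1 PBS with 2, since SCC1 PBS replicate 2 was not analysed here. The lines are established cultures with no added transgene or deletion stated in the labels, they grew without the layered tissue in which a cornified envelope forms, and nothing in the labels says that replicates came from separate cultures, so p-values measure the spread between these libraries.

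The cornified envelope is the protein shell that replaces the plasma membrane of the outermost cells of squamous epithelium. Involucrin (IVL) is an early scaffold of the shell, small proline-rich proteins (SPRR) are cross-bridges, and transglutaminases join them into a network. Filaggrin (FLG) and repetin (RPTN) are fused-type S100 proteins of keratohyalin and of the envelope, while S100A7 (psoriasin) and S100A8 are small calcium-binding proteins made by stressed or inflamed keratinocytes. These genes sit together in the epidermal differentiation complex, and oral epithelium and well differentiated squamous carcinomas are known to express many of them.

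Regions are named here by gene and by distance in kb from the nearest start site of that gene, with a minus sign for upstream and promoter for a region at the start site. At RPTN the regions were −3.6 kb (chr1:152135339-152135704), −5.7 kb (chr1:152137358-152137452) and −8.6 kb (chr1:152140315-152140816). At IVL they were −1.9 kb (chr1:152878572-152879127) and the promoter (chr1:152880790-152881004), which ended 18 bases before the start site. The SPRR1A promoter region (chr1:152956359-152956547) ended 10 bases before the start site. At SPRR1B the regions were −5.1 kb (chr1:152998315-152998543), the promoter (chr1:153003428-153003710), which covered the start site and part of the untranslated exon 1, and +1.7 kb (chr1:153005424-153005883), which lay downstream of the gene. At SPRR2D they were +0.2 kb, within an intron (chr1:153013225-153013424), and −4.6 kb (chr1:153019019-153019187). The last were SPRR2A −1.5 kb (chr1:153031456-153032073) and S100A7 +7.2 kb (chr1:153425040-153425169), the latter downstream of the gene. Apart from the SPRR1B promoter and SPRR2D +0.2 kb, these were upstream or downstream of the transcribed body. SPRR1B and SPRR2D lie so close together that the SPRR1B promoter, SPRR1B +1.7 kb and SPRR2D +0.2 kb fell in the windows of both genes, and SPRR2D −4.6 kb also fell in that of SPRR2A. Each was counted once, under the gene with the nearer start site.

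**Figure D1:**
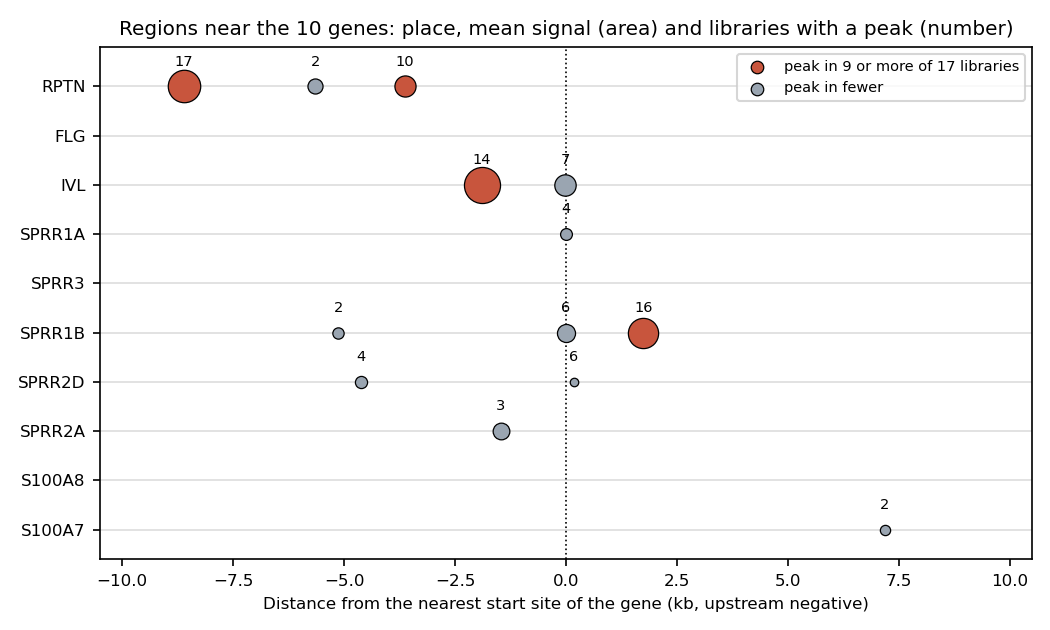
Each of the 13 regions is plotted by gene and by its distance in kb from the nearest start site (x axis, upstream negative). The area of a circle grows with the mean signal over 17 libraries and the number above it counts libraries with a called peak: the large circles, with peaks in 14 to 17 libraries, are RPTN −8.6 kb, IVL −1.9 kb and SPRR1B +1.7 kb, and no region lies near FLG, SPRR3 or S100A8.

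The sequences of the regions on which the comparisons below turn are given from hg19, plus strand and 5′ to 3′, in lower case. Capitals mark matches to the AP-1 site TGACTCA or its reverse complement TGAGTCA, since AP-1 factors are known activators of IVL and SPRR genes downstream of growth factor signalling. IVL −1.9 kb and SPRR1B +1.7 kb are shown because they were the 2 regions whose response to cetuximab differed between lines, and the promoters because they are the regions at the start sites of IVL, SPRR1A and SPRR1B. The longer regions are shown as 300 bases that hold the largest number of matches, and the SPRR1B promoter up to the base before its start site.
IVL −1.9 kb, chr1:152878700-152878999: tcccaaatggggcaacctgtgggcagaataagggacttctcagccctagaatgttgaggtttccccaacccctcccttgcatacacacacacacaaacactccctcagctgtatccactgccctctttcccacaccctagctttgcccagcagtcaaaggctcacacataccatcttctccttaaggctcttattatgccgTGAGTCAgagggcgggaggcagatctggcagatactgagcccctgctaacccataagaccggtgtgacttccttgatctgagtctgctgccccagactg
IVL promoter, chr1:152880790-152881004: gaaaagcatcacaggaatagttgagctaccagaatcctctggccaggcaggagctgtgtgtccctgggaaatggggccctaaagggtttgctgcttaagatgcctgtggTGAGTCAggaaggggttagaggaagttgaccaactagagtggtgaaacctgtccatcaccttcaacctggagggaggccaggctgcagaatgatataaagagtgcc
SPRR1A promoter, chr1:152956359-152956547: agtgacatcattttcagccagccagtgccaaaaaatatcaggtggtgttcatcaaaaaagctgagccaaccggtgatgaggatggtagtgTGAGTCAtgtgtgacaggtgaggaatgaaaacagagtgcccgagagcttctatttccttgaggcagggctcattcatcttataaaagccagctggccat
SPRR1B promoter, chr1:153003428-153003678: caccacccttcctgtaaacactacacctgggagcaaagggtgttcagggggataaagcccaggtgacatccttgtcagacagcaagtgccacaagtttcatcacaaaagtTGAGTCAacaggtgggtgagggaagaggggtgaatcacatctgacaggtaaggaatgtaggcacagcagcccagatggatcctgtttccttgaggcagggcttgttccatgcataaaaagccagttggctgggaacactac
SPRR1B +1.7 kb, chr1:153005504-153005803: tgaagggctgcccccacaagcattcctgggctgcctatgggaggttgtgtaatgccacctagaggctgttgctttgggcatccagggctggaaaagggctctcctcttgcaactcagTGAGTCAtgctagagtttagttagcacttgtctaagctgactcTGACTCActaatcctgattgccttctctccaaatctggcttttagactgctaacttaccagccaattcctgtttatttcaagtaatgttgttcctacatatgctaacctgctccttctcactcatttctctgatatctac

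The AP-1 letters were found in 6 of the 13 regions, against 26.6% of all 115087 regions. Those 6 were the 5 regions above and SPRR2A −1.5 kb, and SPRR1B +1.7 kb held 2 matches. Width sets how often such letters occur, and of regions within 10% of the same width 13.8% held a match for the IVL promoter, 10.7% for the SPRR1A promoter, 34.7% for the SPRR1B promoter, 32.1% for IVL −1.9 kb and 36.8% for SPRR1B +1.7 kb. In RefSeq promoters of 300 bases (GRCh38.p14), matched for 9 of the 10 genes, the AP-1 letters stood before IVL, SPRR1A, SPRR3, SPRR1B and SPRR2A, 5 of 9 promoters, against 4.95% of 35116 promoters. The SPRR1A and SPRR1B promoter regions resembled each other, with 75.2% identity over 145 bases, and each held 1 match to the TEAD letters GGAATG, searched on both strands like the others. TEAD letters were found in 4 of the 13 regions (23.3% of all regions), KLF letters (GGGNGTG) in 4 (24.4%) and C/EBP letters (TTGCNNAA) in 1 (15.6%). The letters of GRHL (AACNNGTT), TFAP2 (GCCNNNGGC) and ETS (CCGGAA) factors were found in 0 of the 13, against 6.26%, 14.5% and 8.27% of all regions. A match is a description of letters and not a measured binding site.

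The values below are the deposited signals, which are read counts scaled for each library, and each was a whole number of reads times the worth of 1 read in that library. Reads in regions ranged from 2194851 to 15017130 per library and 1 read was worth 0.331 to 1.95 units of signal, with 0 reads set to 1 read by the authors' tool, so that low values rest on few reads. Of squamous markers, all 6 of KRT5, KRT14, KRT6A, TP63, CDH1 and EPCAM had a promoter region, with mean signals in a line of 1.74 to 133. In SCC6 the mean signal at KRT14 was 1.74 and at KRT6A 7.87. None of 4 leukocyte and 2 endothelial markers had a promoter region, while 3 of 4 fibroblast markers did, with mean signals in a line of 0.962 to 142. Such a region need not have been open in every line. In such bulk libraries a region open in fewer cells and a region less open in each cell cannot be told apart. These files measure accessibility, and a level of a transcript was not measured in them.

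**Figure D2:**
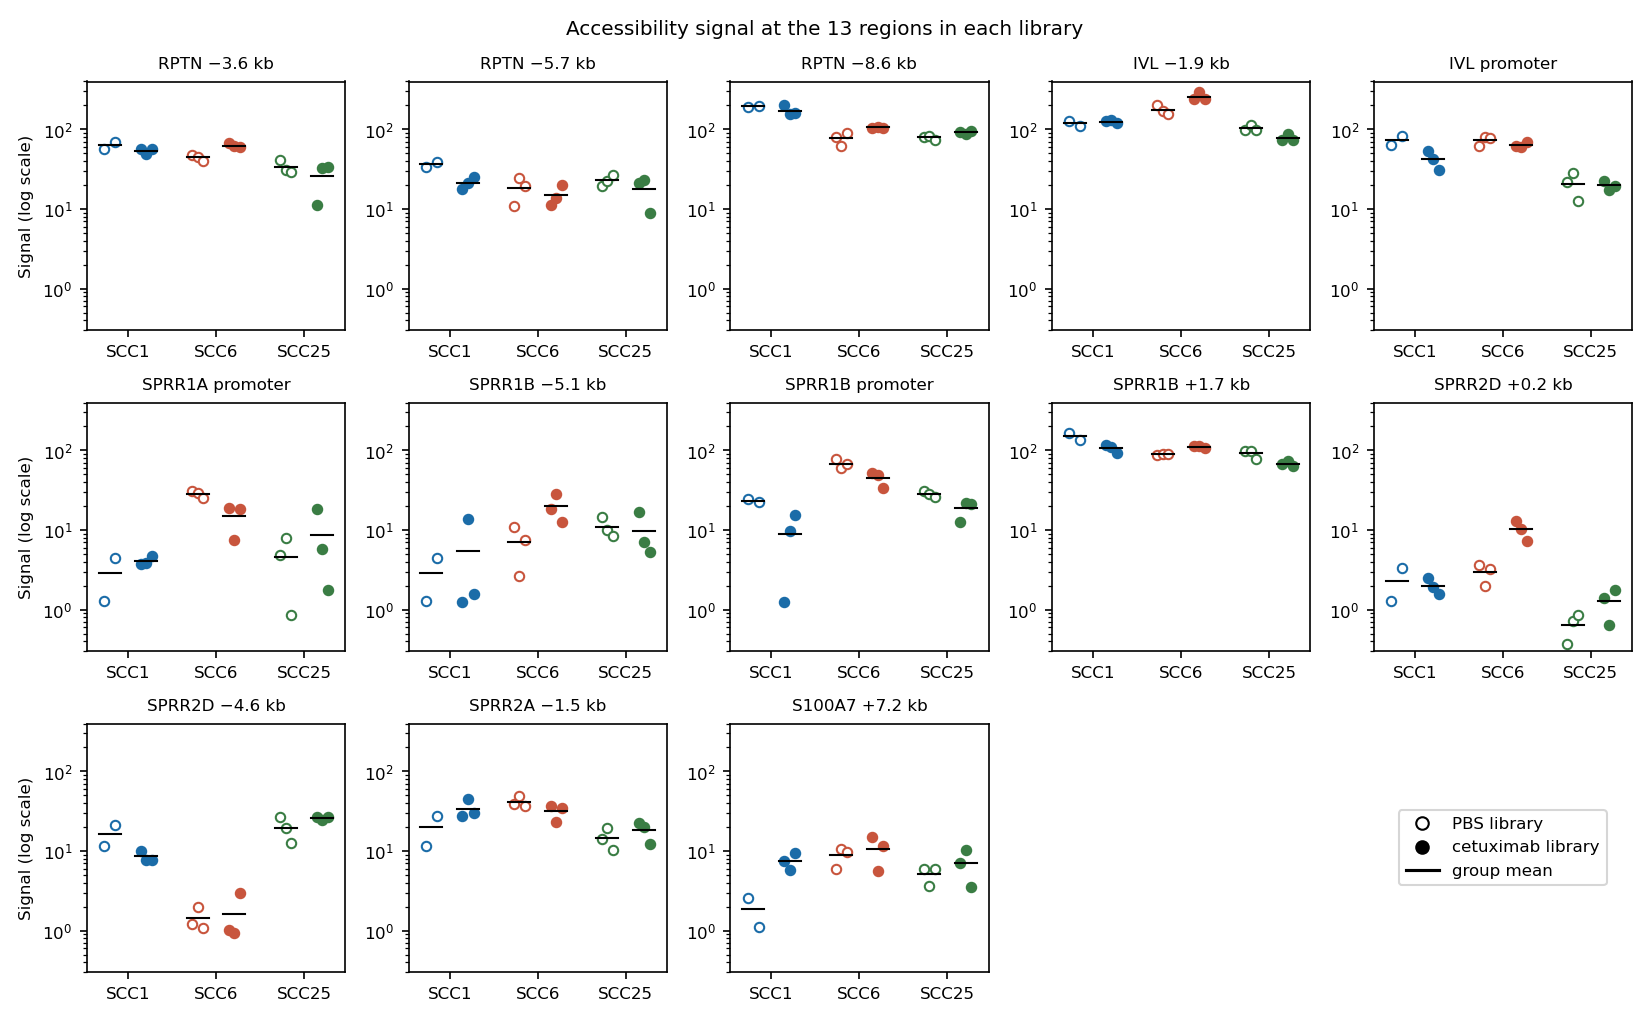
Each panel shows 1 region with the signal on a log axis in every library, by line, with open circles for PBS, filled circles for cetuximab and a bar at the group mean. The IVL −1.9 kb signals of SCC6 under cetuximab (239 to 292) lie above all others at that region, and at the SPRR1A promoter the SCC6 PBS libraries (25.01 to 31.4) lie above all others.

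In SCC6, cetuximab was followed by higher signal at 3 member regions and lower signal at 2. IVL −1.9 kb, RPTN −8.6 kb and SPRR1B −5.1 kb rose, while the SPRR1A and SPRR1B promoters fell. The 5 called regions were among 11 tested (both SPRR2D regions were too low), and 27.5% of all tested regions were called in SCC6 (16.9% higher and 10.6% lower). The median log2 change of the 11 was 0.20, against 0.11 over all tested regions. With each library centred on its median or with quantile normalization, which moved the median of all regions by −0.17 and −0.13 on the log2 scale, 2 member regions were higher and 2 lower.

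IVL −1.9 kb had signals of 239, 292 and 243 in the 3 SCC6 cetuximab libraries and of 201, 173 and 154 in the 3 PBS libraries. The groups did not overlap, and all 6 SCC6 libraries had a called peak there. The mean was 258 ± 29.6 (SD, n = 3) against 176 ± 23.2 (SD, n = 3), or 0.55 ± 0.12 higher on the log2 scale (SE, limma adjusted p = 0.000291). This call was kept in all 17 alternative settings, with adjusted p from 3.15e-05 to 0.0156.

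SPRR1B −5.1 kb had lower signals, of 18.2, 28.8 and 12.6 with cetuximab and 10.9, 2.68 and 7.61 with PBS. The treated libraries were all above the untreated ones, which held 9, 4 and 7 reads. The log2 change was 1.46 ± 0.48 (SE, limma adjusted p = 0.0184). Leaving out cetuximab replicate 1 or 2 ended the call (adjusted p = 0.0523 and 0.168), as did leaving out PBS replicate 2 (adjusted p = 0.125), removing the trend with GC content (0.0750) and testing the recovered reads with DESeq2 (0.0549). The region passed the limit on low signal only through the treated libraries, and with no limit the adjusted p was 0.0264.

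RPTN −8.6 kb, the 1 region with a peak in every library, had signals of 104, 109 and 106 with cetuximab and 79.7, 61.6 and 91.4 with PBS. All treated libraries were higher, by 0.47 ± 0.18 on the log2 scale (SE, limma adjusted p = 0.0440). The adjusted p was 0.223 with each library centred on its median, 0.0840 with quantile normalization, 0.0624 with no limit on low signal, 0.0722 with edgeR and 0.173 with DESeq2. Leaving out cetuximab replicate 1, 2 or 3 gave 0.0739, 0.122 and 0.0652, and leaving out PBS replicate 1 or 2 gave 0.0615 and 0.251. RPTN −3.6 kb had signals of 66.7, 62.2 and 59.5 against 48.3, 44.8 and 40.2. These did not overlap either, with a log2 difference of 0.49 ± 0.22 (SE), but the test was not passed (limma adjusted p = 0.0938).

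The 2 regions that fell were both promoters of SPRR1 genes, which code for cross-bridging proteins of the envelope. The SPRR1B promoter had signals of 52.5, 49.2 and 33.4 in the cetuximab libraries and 78.5, 59.6 and 67.4 in the PBS libraries, which is −0.61 ± 0.23 on the log2 scale (SE, limma adjusted p = 0.0394). The SPRR1A promoter had signals of 19.2, 7.43 and 18.2 with cetuximab and 31.4, 29.4 and 25.01 with PBS, which is −0.99 ± 0.35 on the log2 scale (SE, limma adjusted p = 0.0290). Groups did not overlap at either promoter. The SPRR1A call rested on single libraries, with an adjusted p of 0.254 without cetuximab replicate 2 (which held 8 reads), 0.0855 without PBS replicate 1 and 0.0927 without PBS replicate 2, and DESeq2 on the recovered reads gave 0.0638. The SPRR1B call was lost without cetuximab replicate 2 (0.0528) or 3 (0.1504) and without PBS replicate 1 (0.152), 2 (0.0546) or 3 (0.0880), these being limma adjusted p-values. It was also lost with no limit on low signal (0.0563) and with all libraries in 1 fit (0.392).

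The IVL promoter was not called in SCC6. Its signals were 61.6, 59.4 and 70.4 with cetuximab and 62.8, 81.0 and 78.3 with PBS, and they overlapped (log2 difference −0.21 ± 0.20, SE, limma adjusted p = 0.454). SPRR2A −1.5 kb, at 36.4, 23.2 and 34.7 against 38.7, 49.5 and 37.0, differed by −0.41 ± 0.27 (log2, SE, limma adjusted p = 0.249). RPTN −5.7 kb, SPRR1B +1.7 kb and S100A7 +7.2 kb did not pass the test, with limma adjusted p of 0.662, 0.136 and 0.793.

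The SPRR2D intron region (+0.2 kb) was below the limit on low signal in every comparison and was not tested. In SCC6 it held 13, 11 and 22 reads with cetuximab and 3 reads in each PBS library, with signals of 13.1, 10.2 and 7.27 against 3.62, 2.01 and 3.26. A peak overlapped it in all 6 SCC6 libraries, with a fold enrichment of 1.12 to 3.76, and in no library of the other lines. The peaks in SCC6 PBS were not matched by more reads, since SCC1 PBS replicate 3 also held 3 reads there (signal 3.35) without a peak. Without the limit its difference in SCC6 had a limma adjusted p of 0.0427. The region has copies in the SPRR2 cluster, the best with 82.0% identity over 206 bases, and whether its reads came in part from them was not tested.

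**Figure D3:**
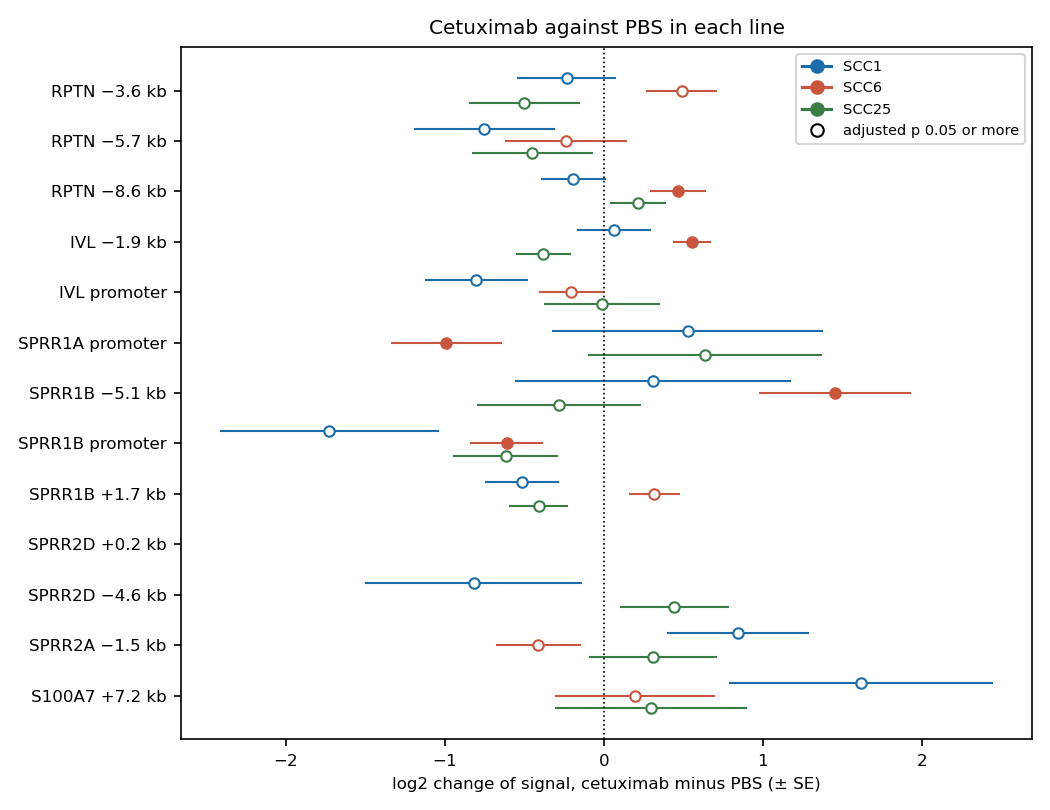
Points show the log2 change of signal with cetuximab against PBS (x axis, ± SE) at each region in SCC1 (blue), SCC6 (red) and SCC25 (green), filled where the adjusted p was under 0.05. The 5 filled points are all SCC6, and the SPRR1B promoter lies left of 0 in all 3 lines.

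In SCC1, 0 of 12 tested member regions were called, against 11.1% of all tested regions. An unadjusted p under 0.05 was reached by 3 of the 12, all lower with cetuximab, a share close to the 24.1% of all tested regions that reached it, and edgeR and DESeq2 on the recovered reads also called 0. The SPRR1B promoter had signals of 1.27, 9.73 and 15.7 with cetuximab and 24.7 and 22.3 with PBS, a log2 difference of −1.73 ± 0.69 (SE, limma adjusted p = 0.0854). All treated libraries were lower, at 1, 5 and 10 reads against 19 and 20. Leaving out cetuximab replicate 2 or 3 gave an adjusted p of 0.0463 or 0.0389, and it was 0.0204 when all libraries shared 1 fit.

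The IVL promoter in SCC1 had signals of 53.3, 42.8 and 31.3 with cetuximab and 63.8 and 83.7 with PBS, which did not overlap (log2 difference −0.80 ± 0.33, SE, limma adjusted p = 0.0935). Peaks were called there in both PBS libraries and in none of the cetuximab libraries. SPRR1B +1.7 kb, at 117, 109 and 92.3 against 168 and 136, differed by −0.51 ± 0.23 (log2, SE, limma adjusted p = 0.147). IVL −1.9 kb was at 127, 130 and 119 against 129 and 112, with overlapping groups and a log2 difference of 0.06 ± 0.23 (SE, limma adjusted p = 0.909). Not all regions without overlap were lower. SPRR2A −1.5 kb was higher with cetuximab by 0.84 ± 0.45 (log2, SE, limma adjusted p = 0.231). S100A7 +7.2 kb, which held few reads, was higher by 1.62 ± 0.83 (log2, SE, limma adjusted p = 0.211). It passed the limit on low signal only through the treated libraries (mean 7.62, against 1.86 with PBS). Its being tested was thus not independent of its difference. The 2 PBS libraries limit this line, in which the groups failed to overlap at 8 of the 13 regions, against 33.4% of all 115087 regions. In regions on chromosome 1 within 5 Mb of the members, the median log2 difference in SCC1 was 0.28 (403 regions), against −0.09 over all regions, and the members' median was −0.21.

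In SCC25, 0 of 12 tested member regions were called, against 0.315% of all tested regions, and edgeR and DESeq2 also called 0. The 2 regions with an unadjusted p under 0.05, which 13.2% of all tested regions reached, were IVL −1.9 kb and SPRR1B +1.7 kb. IVL −1.9 kb had signals of 74.5, 87.9 and 74.4 with cetuximab and 98.0, 113 and 97.6 with PBS, so that all treated libraries were lower (log2 difference −0.38 ± 0.17, SE, limma adjusted p = 0.345). SPRR1B +1.7 kb had 67.5, 74.2 and 63.8 against 97.6, 99.5 and 78.0, also without overlap (log2 difference −0.41 ± 0.19, SE, limma adjusted p = 0.337). The SPRR1B promoter, at 12.7, 22.1 and 21.3 against 30.9, 28.1 and 26.3, differed by −0.62 ± 0.33 (log2, SE, limma adjusted p = 0.433). The SPRR1A promoter had 1 to 13 reads per library in SCC25, and its signals of 1.77 to 18.3 with cetuximab and 0.848 to 7.93 with PBS overlapped.

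Across the 3 lines, with the line as a covariate, the SPRR1B promoter fell with cetuximab. Its log2 change was −0.93 ± 0.30 (SE, limma adjusted p = 0.0404), and it was the 1 called region among 9 tested, against 12.2% of all tested regions. All treated libraries were below all untreated libraries of the same line. The call was near the threshold and was lost without any of SCC1 PBS replicates 1 (0.0911) and 3 (0.0839), SCC6 cetuximab replicate 3 (0.0672), SCC6 PBS replicates 1 (0.0614) and 3 (0.0557), SCC25 cetuximab replicate 1 (0.0660) and SCC25 PBS replicates 1 (0.0592) and 2 (0.0523), where the values are limma adjusted p. It was lost as well with a replicate block (0.0842), with quantile normalization (0.0554), with the trend with GC content removed (0.0708), with no limit on low signal (0.0523) and without the line as a covariate (0.728). The change at this promoter was not shown to differ between lines (F-test of the interaction, limma adjusted p = 0.417).

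The response of 2 member regions did differ between lines, among 9 tested, against 13.2% of all tested regions. At IVL −1.9 kb the log2 change was 0.55 in SCC6, 0.06 in SCC1 and −0.38 in SCC25 (F-test of line by treatment, limma adjusted p = 0.0103), and the adjusted p stayed under 0.05 in all 27 alternative fits, where it reached 0.0432, but the call did not pass a threshold of 0.01. SCC6 exceeded SCC1 in this log2 change by 0.49, or by 0.14 with each library centred on its median. At SPRR1B +1.7 kb it was 0.32 in SCC6, −0.51 in SCC1 and −0.41 in SCC25 (limma adjusted p = 0.0312). The signals of this region in SCC6 were 115, 114 and 106 with cetuximab and 88.2, 89.7 and 90.3 with PBS, so that treated libraries were above the untreated ones in SCC6 and below them in the other 2 lines. That second difference was not kept when each library was centred on its median (adjusted p = 0.186) or when the trend with GC content was removed (0.130), and leaving out any of 9 single libraries also ended it, with limma adjusted p from 0.0523 to 0.0769. These were SCC1 PBS replicate 1, SCC25 PBS replicates 1 and 2 and each of the 6 SCC6 libraries.

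**Figure D4:**
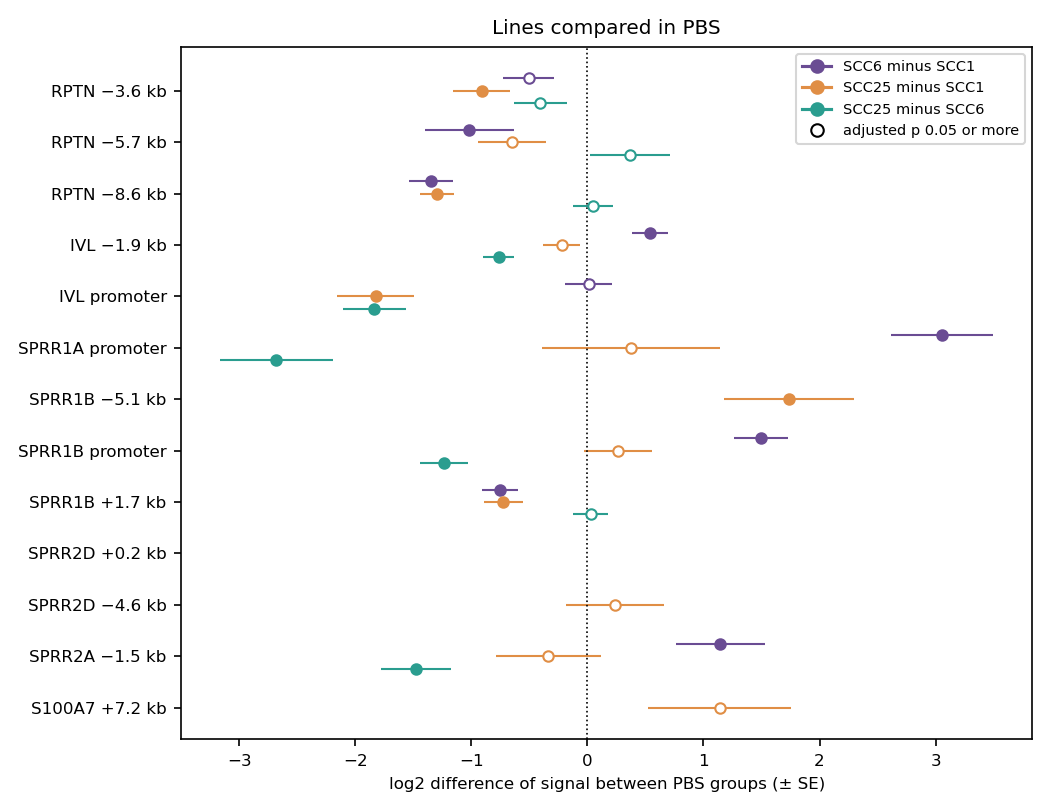
Points show the log2 difference of signal between the PBS groups of 2 lines (x axis, ± SE) at each region, for SCC6 minus SCC1 (purple), SCC25 minus SCC1 (orange) and SCC25 minus SCC6 (teal), filled where the adjusted p was under 0.05. The SPRR1A promoter is far right for SCC6 minus SCC1 (3.06) and far left for SCC25 minus SCC6 (−2.68).

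Untreated cells of the 3 lines differed at many member regions, as they did across the genome. SCC6 had the highest signal at IVL −1.9 kb, the SPRR1A and SPRR1B promoters and SPRR2A −1.5 kb, SCC1 at the RPTN regions and SPRR1B +1.7 kb, and SCC25 had a low signal at the IVL promoter. The pairwise comparisons share PBS libraries, so they are not independent of each other. Between SCC6 and SCC1, 7 of 9 tested member regions were called, against 63.4% of all regions, with 4 higher in SCC6 (36.7% of all regions) and 3 lower (26.7%). Between SCC25 and SCC1, 5 of 12 were called, against 58.7%, with 1 higher in SCC25 (33.9%) and 4 lower (24.8%), or 0 higher and 5 lower after quantile normalization. Between SCC25 and SCC6, 5 of 9 were called, against 72.0%, with 0 higher in SCC25 (36.9%) and 5 lower (35.1%). The median log2 difference of the tested members was 0.01, −0.28 and −0.76 in these comparisons, against 0.12, 0.10 and 0.00 over all tested regions.

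The SPRR1A promoter was higher in SCC6 than in both other lines. Its PBS signals were 31.4, 29.4 and 25.01 in SCC6, 1.30 and 4.47 in SCC1, and 4.90, 7.93 and 0.848 in SCC25. SCC6 was above both other lines without overlap, while SCC1 and SCC25, with 1 to 13 reads per library, overlapped. The log2 difference was 3.06 ± 0.44 (SE, limma adjusted p = 0.000374) for SCC6 against SCC1 and −2.68 ± 0.49 (SE, limma adjusted p = 0.000175) for SCC25 against SCC6, on the scale of log2(signal + 1). SCC25 and SCC1 were not separated (0.38 ± 0.77, SE, limma adjusted p = 0.693). This region passed the limit on low signal in the comparisons with SCC6 only through the SCC6 libraries, where it is high, so that its being tested there was not independent of its difference. With no limit on low signal the adjusted p was 0.000679 against SCC1 and 0.000489 for SCC25 against SCC6.

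The SPRR1B promoter followed the same order. The PBS signals were 78.5, 59.6 and 67.4 in SCC6, 30.9, 28.1 and 26.3 in SCC25, and 24.7 and 22.3 in SCC1. SCC6 was higher than SCC1 by 1.495 ± 0.23 on the log2 scale (SE, limma adjusted p = 0.00052), and SCC25 differed from SCC6 by −1.23 ± 0.21 (SE, limma adjusted p = 7.99e-05). SCC25 and SCC1 did not overlap but were not separated by the test (0.26 ± 0.29, SE, limma adjusted p = 0.456). At SPRR1B +1.7 kb, 1.745 kb from the same start site, the order was different. SCC1 was the highest there, at 168 and 136, against 88.2, 89.7 and 90.3 in SCC6 and 97.6, 99.5 and 78.0 in SCC25. SCC6 lay below SCC1 by a log2 difference of −0.75 ± 0.15 (SE, limma adjusted p = 0.00246) and SCC25 by −0.72 ± 0.17 (SE, limma adjusted p = 0.00259), and SCC6 and SCC25 overlapped. With the GC trend removed, SCC25 was called lower than SCC6 at this region (log2 difference −0.47, limma adjusted p = 0.00902).

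The IVL promoter was accessible in PBS at 63.8 and 83.7 in SCC1 and at 62.8, 81.0 and 78.3 in SCC6, but at 21.9, 28.1 and 12.7 in SCC25. The SCC25 libraries were all below the others, with a log2 difference of −1.83 ± 0.33 (SE) from SCC1 (limma adjusted p = 0.00038) and of −1.84 ± 0.28 (SE) from SCC6 (limma adjusted p = 2.94e-05), and no peak was called there in any of the 6 SCC25 libraries. SCC6 and SCC1 overlapped (0.01 ± 0.21, SE, limma adjusted p = 0.97). At IVL −1.9 kb the spread between lines was narrower. SCC6, at 154 to 201, exceeded SCC1, at 112 and 129, by 0.54 ± 0.15 on the log2 scale (SE, limma adjusted p = 0.0135, or 0.0619 without SCC1 PBS replicate 3 and 0.129 with DESeq2). SCC25, at 97.6 to 113, was lower than SCC6 by a log2 difference of −0.76 ± 0.13 (SE, limma adjusted p = 0.000126) and overlapped with SCC1 (limma adjusted p = 0.243). With libraries centred on their medians, SCC25 was called lower than SCC1 there (log2 difference −0.46, limma adjusted p = 0.0264).

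At RPTN, SCC1 had the highest PBS signal at all 3 regions. RPTN −8.6 kb was at 194 and 199 in SCC1, at 61.6 to 91.4 in SCC6 and at 74.6 to 82.2 in SCC25, with log2 differences from SCC1 of −1.35 ± 0.19 (SE, limma adjusted p = 0.000293) and −1.30 ± 0.15 (SE, limma adjusted p = 9.4e-06). SCC6 and SCC25 overlapped there, but SCC25 was called lower than SCC6 with the GC trend removed (log2 difference −0.47, limma adjusted p = 0.0251). RPTN −3.6 kb, at 57.2 and 70.3 in SCC1 and 28.8 to 41.1 in SCC25, differed by −0.91 ± 0.25 (log2, SE, limma adjusted p = 0.00669), and SCC6, at 40.2 to 48.3, lay between them with no call against either line in the main fits. SCC6 was called lower than SCC1 with libraries centred on their medians (limma adjusted p = 0.0354), with the GC trend removed (0.000396) and with edgeR (0.0199). SCC25 was called lower than SCC6 with centring (limma adjusted p = 0.0355) and quantile normalization (0.0324). RPTN −5.7 kb, at 33.8 and 39.1 in SCC1 and 10.9 to 24.8 in SCC6, differed by −1.02 ± 0.39 (log2, SE, limma adjusted p = 0.0464). That call was lost without SCC1 PBS replicate 1 (0.0620) or 3 (0.115) and without SCC6 PBS replicate 1 (0.101) or 3 (0.0680), and it was lost with the trend with GC content removed (0.164), with no limit on low signal (0.0573) and with all libraries in 1 fit (0.0501). In regions on chromosome 1 within 5 Mb of the members, the median log2 difference from SCC1 was −0.26 in SCC6 (391 regions) and −0.25 in SCC25 (385 regions), against 0.12 and 0.10 over all regions. At regions of 40 other genes of the epidermal differentiation complex, the median log2 difference from SCC1 was −0.77 in SCC6 and −0.67 in SCC25. In SCC6, 22 of 43 tested regions were called lower than in SCC1 and 10 higher (26.7% and 36.7% of all tested regions). In SCC25, 20 of 39 were called lower than in SCC1 and 3 higher (24.8% and 33.9%). The part of these shifts in the RPTN differences was not tested.

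SPRR2A −1.5 kb had PBS signals of 38.7, 49.5 and 37.0 in SCC6, 11.7 and 27.9 in SCC1 and 14.3, 19.5 and 10.2 in SCC25. SCC6 was above both, by a log2 difference of 1.14 ± 0.38 from SCC1 (SE, limma adjusted p = 0.0282) and with SCC25 lower by −1.48 ± 0.30 (SE, limma adjusted p = 0.000483). The difference from SCC1 was lost without SCC1 PBS replicate 1, where the log2 value was 0.55 (adjusted p = 0.161), and without SCC6 PBS replicate 1 (0.0542) or 2 (0.100). A replicate block (0.0695) and DESeq2 (0.101) ended it too. A copy with 88.1% identity over 621 bases lies in the same cluster. SPRR2D −4.6 kb had signals of 11.7 and 21.2 in SCC1 and 26.8, 19.5 and 12.7 in SCC25, and 1.21, 2.01 and 1.09 in SCC6, the last from 1 to 3 reads. It was tested between SCC25 and SCC1, which overlapped (limma adjusted p = 0.645), but fell under the limit on low signal with SCC6, where the adjusted p without that limit was 0.00123 against SCC1 and 6.9e-06 against SCC25. Its sequence aligned to 1807 other places in the stretch of chromosome 1 around the members at 80% identity or more, as repeats do. SPRR1B −5.1 kb was higher in SCC25, at 14.7, 10.1 and 8.48, than in SCC1, at 1.30 and 4.47 (log2 difference 1.74 ± 0.56, SE, limma adjusted p = 0.0167), and the adjusted p was 0.117 without SCC1 PBS replicate 1 and 0.0773 without SCC25 PBS replicate 1. Quantile normalization cut this log2 difference to 0.73 (adjusted p = 0.211) and removal of the trend with GC content to 0.97 (adjusted p = 0.132), and DESeq2 gave an adjusted p of 0.0950. It passed the limit on low signal only through SCC25, and with no limit the adjusted p was 0.0214. S100A7 +7.2 kb, at 2.60 and 1.12 in SCC1, 6.04, 10.7 and 9.79 in SCC6 and 6.03, 3.61 and 5.94 in SCC25, was not called where it was tested (SCC25 against SCC1, limma adjusted p = 0.129). Without the limit on low signal, SCC6 exceeded SCC1 there by a log2 difference of 1.80 (limma adjusted p = 0.0125), and SCC25 differed from SCC6 by −0.66 (limma adjusted p = 0.105).

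**Figure D5:**
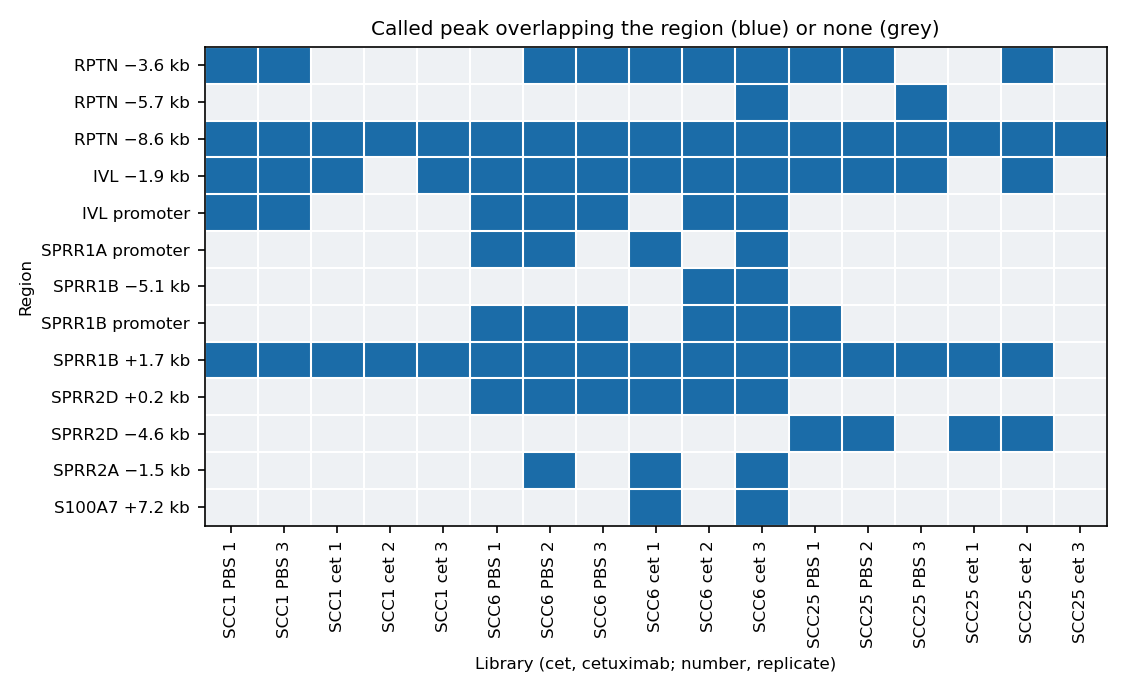
Rows are the 13 regions and columns the 17 libraries, with blue where a called peak of that library overlaps the region and grey where none does. RPTN −8.6 kb is blue in all 17, SPRR2D +0.2 kb in the 6 SCC6 libraries and SPRR2D −4.6 kb in 4 SCC25 libraries.

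Peaks called library by library gave a second view of the same reads. The mean number of member regions with a peak was 9.33 ± 2.31 (SD, n = 3) in SCC6 cetuximab, 7.67 ± 1.15 (SD, n = 3) in SCC6 PBS, 5.00 (n = 2, 5 in each) in SCC1 PBS, 2.67 ± 0.58 (SD, n = 3) in SCC1 cetuximab, 5.00 ± 1.00 (SD, n = 3) in SCC25 PBS and 3.00 ± 2.00 (SD, n = 3) in SCC25 cetuximab. Depth differed between the same libraries, with 15017130 reads in regions in SCC6 cetuximab replicate 3, which had peaks at 12 of 13 regions, and 2513828 in SCC25 cetuximab replicate 3, which had 1. The part of depth in these numbers was not tested. RPTN −8.6 kb was covered in 17 libraries, SPRR1B +1.7 kb in 16 and IVL −1.9 kb in 14, while S100A7 +7.2 kb, SPRR1B −5.1 kb and RPTN −5.7 kb were covered in 2 each.

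FLG, SPRR3 and S100A8, which have no region in the merged set, each had a peak in 1 or 2 libraries. At FLG a peak with a fold enrichment of 10.4 lay 30 bases upstream of the start site in SCC25 PBS replicate 1 (chr1:152297745-152297894), and another of 5.52 lay 3584 bases upstream in SCC6 cetuximab replicate 3 (chr1:152301299-152301499). At SPRR3 a peak of 7.21 lay 31 bases upstream in SCC6 cetuximab replicate 3 (chr1:152973926-152974192). At S100A8 a peak of 1.89 lay 36 bases upstream in SCC1 cetuximab replicate 1 (chr1:153363585-153363682), and one of 3.60 lay downstream in SCC25 PBS replicate 1 (chr1:153359117-153359278). SCC25 PBS replicate 1 and SCC6 cetuximab replicate 3, with 13408698 and 15017130 reads in regions, were the 2 deepest libraries. These places were not compared between groups here.

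Other genes of the epidermal differentiation complex, 40 genes with 49 regions near 28 of them, were counted in the same way. In SCC6, 12 of 42 tested regions were called, or 28.6%, close to the 27.5% of all tested regions. Of these, 9 were higher and 3 lower (16.9% and 10.6% of all tested regions), or 3 higher and 4 lower with each library centred on its median. The median log2 change was 0.35, against 0.11 over all regions. S100A10, the partner of annexin A2, went up from 105 ± 8.38 to 177 ± 46.6 (SD, n = 3 each) at 2.11 kb from its start site (log2 change 0.72 ± 0.16, SE, limma adjusted p = 0.000359). LCE4A, a late cornified envelope protein gene, had a region 10.2 kb from its start site. It was at 16.5 to 23.2 with cetuximab and at the floor of 0 or 1 read in the 3 PBS libraries. This region passed the limit on low signal only through the treated libraries, so that its being tested was not independent of its difference. SPRR4, a further small proline-rich gene, fell by 1.80 on the log2 scale (limma adjusted p = 0.000927), from 30.0 to 9.04. KPRP, a keratinocyte proline-rich protein gene, fell from 54.1 to 25.6 (limma adjusted p = 0.00233).

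In SCC1, 3 of 41 tested regions of these other genes were called, or 7.32%, against 11.1% of all tested regions. Of these, 0 were higher (4.57% of all tested regions) and 3 lower (6.56%), or 2 higher and 3 lower after centring and 2 higher and 4 lower with quantile normalization. The same KPRP region fell from 53.0 to 11.8 (log2 change −2.36 ± 0.52, SE, limma adjusted p = 0.00047), and a region at CRCT1, a cysteine-rich gene of the complex, fell from 227 ± 6.13 (SD, n = 2) to 57.1 ± 22.9 (SD, n = 3, limma adjusted p = 3.87e-11). In SCC25, 0 of 39 were called by limma (0.315% of all tested regions), with 3 at an unadjusted p under 0.05 (13.2% of all tested regions). The lists of other genes were run with limma only.

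Genes elsewhere in the genome that build or control the envelope were counted beside the members. Of 14 cross-linking and envelope genes, 12 had regions. In SCC1, 5 of 40 tested regions were called, all higher (9 of 40 after centring, all higher), or 12.5% against 11.1% of all tested regions called in either direction and 4.57% called higher. In SCC6 it was 9 of 40, with 5 higher and 4 lower (or 4 higher and 8 lower after centring), or 22.5% against 27.5%. Of all tested regions in SCC6, 16.9% were called higher and 10.6% lower. In SCC25 it was 0 of 42, against 0.315% of all tested regions. An unadjusted p under 0.05 was reached by 6 of these, and by 13.2% of all tested regions. The promoter region of TGM1, the membrane-bound transglutaminase of keratinocytes, in SCC6 was at 25.8 ± 8.87 with PBS and rose to 60.5 ± 7.99 (SD, n = 3 each, limma adjusted p = 0.000277), and it rose in SCC1 from 21.6 ± 1.07 (SD, n = 2) to 73.6 ± 16.4 (SD, n = 3, limma adjusted p = 0.00011). Envoplakin (EVPL), a plakin of the envelope scaffold, rose in SCC1 from 111 to 238 (limma adjusted p = 3.31e-05). A region near its partner periplakin (PPL) fell in SCC6 from 196 to 114 (limma adjusted p = 2.56e-05), and one near TGM3, the epidermal transglutaminase, from 34.9 to 13.3 (limma adjusted p = 0.00121).

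Of 12 transcription factors known to act in keratinocyte differentiation, all had regions. In SCC1, 5 of 48 tested regions were called, all higher, or 10.4% against 11.1% of all tested regions called in either direction and 4.57% called higher. In SCC6 it was 10 of 44, with 3 higher and 7 lower (or 3 and 11 after centring), or 22.7% against 27.5%. Of all tested regions in SCC6, 16.9% were called higher and 10.6% lower. In SCC25 it was 0 of 48 (0.315% of all tested regions), or 1 higher after centring or quantile normalization. An unadjusted p under 0.05 was reached by 4 of the 48, and by 13.2% of all tested regions. A region 7.015 kb from the start site of GRHL1, a grainyhead-like factor, rose in SCC1 from 12.7 ± 2.22 (SD, n = 2) to 52.8 ± 15.3 (SD, n = 3, limma adjusted p = 0.000298) and fell in SCC6 from 43.5 ± 8.73 to 11.5 ± 0.54 (SD, n = 3 each, limma adjusted p = 1.41e-05). In SCC6 the promoter of PRDM1 (Blimp-1) fell from 61.7 to 27.3 (limma adjusted p = 0.000329).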

How the data were processed

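ATAC-seq libraries were prepared by the authors with the Nextera Tn5 kit. They trimmed reads with Trim Galore 0.5.0, aligned them to hg19 with Bowtie2 2.3.2, used Picard 2.18 against duplicates and mitochondrial reads, and filtered with SAMtools 1.9. Broad peaks were called per library with MACS2 and merged with DiffBind (versions not given in the sources used here). The deposited region table holds a signal for 115087 regions, scaled per library. The deposited peak lists hold for each peak the fold enrichment as a ratio, and p-value and q-value as −log10, together with a score and a peak signal that were not used.

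Every deposited signal was a whole multiple of 1 step per library (100% of values, tolerance 0.001), so reads were recovered as counts by division, with values of 0 already set to 1. Reads in regions ranged from 2194851 to 15017130 per library, and the median region held 7 to 68 reads. Whole libraries may hold more reads, so depth is known in regions only.

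Signals were tested as log2(signal + 1) with limma 3.58.1 in R 4.3.3 (trend, robust, two-sided), fitted on all regions except the 25% lowest in mean, with Benjamini-Hochberg adjustment over all tested regions at 0.05. Fold changes are on that scale and understate the change of low regions. A line's fit held that line's libraries alone. Further fits held all libraries with line as a covariate, the line by treatment interaction (F-test), and the PBS libraries of each pair of lines. On simulated reads with 200 regions changed by a log2 of 2 (assumed dispersion 0.05), the fits recovered 63.5% of them in SCC1 (86316 regions), 84.0% in SCC6 (86315), 83.5% in SCC25 (86315) and 46.5% for the interaction (86315). The called changes with cetuximab at member regions were smaller than this, so these shares do not give the power to detect changes of their size.

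Alternatives were other scalings, pseudocounts of 5 and 0.5, other limits on low signal, a trend with GC content removed, a replicate block, all libraries in 1 fit, no line covariate, each library left out, an adjusted p under 0.01, windows of 0 and 25 kb, and count tests on the recovered reads, with the quasi-likelihood test of edgeR 4.0.16 and with DESeq2 1.42.0. These called 28.7% and 21.8% of regions in SCC6. Genes came from GENCODE release 44 mapped to GRCh37, and promoter sequences from RefSeq (GRCh38.p14). Copies of regions were searched with blastn 2.17.0, and Python 3.11.15 with pandas 2.3.3 did the rest.

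Regions named with values were all member regions and, for the other lists, up to 2 higher and 2 lower called regions per line with the smallest adjusted p, not all of which are reported here. The members, lists and tests were chosen with earlier results of these data known.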

Additional observations from a re-analysis of the deposited data

Results flagged for a closer look

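The change with cetuximab differed between lines at IVL −1.9 kb (F-test of the line by treatment interaction, limma adjusted p = 0.0103). All 3 treated SCC6 libraries were above the untreated ones, all 3 treated SCC25 libraries were below, and those of SCC1 overlapped.

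The change also differed between lines at SPRR1B +1.7 kb (limma adjusted p = 0.0312), where treated libraries were higher in SCC6 and lower in SCC1 and SCC25 without overlap in any line. This call was lost in 11 of 27 alternative fits. Among these were libraries centred on their medians (limma adjusted p = 0.186) and the GC trend removed (0.130).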

How the results depend on the processing

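Of 25 called differences at member regions, 15 had an adjusted p under 0.05 in every alternative fit that could be run, 10 did not in some and 0 changed direction. Of the 15, 14 also passed an adjusted p under 0.01, the exception being the interaction at IVL −1.9 kb. The 5 calls at the SPRR1A promoter and SPRR1B −5.1 kb have no value with the 50% lowest regions left out or with all libraries in 1 fit, where these regions were too low to be tested. Of 58 uncalled ones, 7 were called under some alternative and 21 changed sign under some. The number of called member regions was 0 in SCC1, but 1 with a replicate block, with all libraries in 1 fit and with a window of 25 kb, and 0 to 1 when 1 library was left out. In SCC6 it was 5, but 3 with the 50% lowest regions left out, 2 with all libraries in 1 fit, 2 with DESeq2, 1 at an adjusted p under 0.01, 1 and 10 with windows of 0 and 25 kb, and 1 to 4 when 1 library was left out. In SCC25 it was 0 and stayed at 0 to 0 when 1 library was left out. Over all lines it was 1, but 0 with quantile normalization, with the GC trend removed, with no limit on low signal, with a replicate block, without the line covariate and at an adjusted p under 0.01, 3 with a window of 25 kb, and 0 to 1 when 1 library was left out. For the interaction it was 2, but 1 with libraries centred on their medians, 1 with the GC trend removed, 0 at an adjusted p under 0.01, 0 and 5 with windows of 0 and 25 kb, and 1 to 2 when 1 library was left out. For SCC6 against SCC1 in PBS it was 7, but 4 at an adjusted p under 0.01, 1 and 11 with windows of 0 and 25 kb, and 5 to 7 when 1 library was left out. For SCC25 against SCC1 it was 5, but 0 and 9 with windows of 0 and 25 kb, and 4 to 5 when 1 library was left out. For SCC25 against SCC6 it was 5, but 1 and 11 with those windows, and 5 to 6 when 1 library was left out. Windows change which regions are members, and the other causes were not tested.

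Libraries with the same replicate number did not deviate together (correlations −0.042 to 0.0265 within lines). Deviations from the mean of so few libraries cancel out within a group, so this cannot settle whether the numbers pair libraries, and the labels do not say. The replicate block changed the counts of SCC1 and of all lines as given and no other by more than 1.5 times. It ended the calls of the SPRR1B promoter over all lines and of SPRR2A −1.5 kb between SCC6 and SCC1, and no other call at a member region. Counts for the lists of other genes moved by more than 1.5 times in 10 settings and peak numbers in 10 by more than the spread between libraries. Depth limits the SPRR1A, SPRR1B −5.1 kb, SPRR2D and S100A7 regions, which held few reads in most libraries.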
